A study of Homo sapiens with 24 samples.

Results

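The 10 chemokine genes CXCL1, CXCL2, CXCL3, CXCL5, CXCL8, CXCL10, CXCL11, CXCL16, CCL5 and CCL20 were followed through all 8 groups of libraries. They were chosen by symbol as the chemokines of the NF-kB and interferon type that epithelial cells make, and they are 10 of the 58735 genes in the count tables. The cells were HCT116, a human colorectal carcinoma line that, per the methods of the study, carried OsTIR1, the plant F-box protein of the auxin system, under a doxycycline-inducible promoter. WT cells had no degron. In UHRF1-AID cells the endogenous UHRF1, in DNMT1-AID cells the endogenous DNMT1, and in UHRF1-AID/DNMT1-AID cells both were fused to an auxin-inducible degron (AID) and a fluorescent protein. Polyadenylated RNA of the 4 lines was sequenced before auxin (day 0) and after 4 days of 500 µM auxin with 2 µg/ml doxycycline, which WT cells received too. A day of doxycycline with the OsTIR1 inhibitor auxinole came before. Each group had 3 libraries. Per the study's methods each degron line was raised as 3 clones and the RNA-seq replicates were biological ones, while the labels tie no library to a clone and the origin of the WT replicates is not given in the sources used here.

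Chemokines are small secreted proteins that attract leukocytes through G protein-coupled receptors. CXCL1, CXCL2, CXCL3, CXCL5 and CXCL8 (interleukin 8) bind CXCR2 on neutrophils and are textbook targets of NF-kB. CXCL10 and CXCL11 bind CXCR3 on activated T cells and are induced by interferon. CCL5 (RANTES) responds to both NF-kB and interferon regulatory factors, and CCL20 binds CCR6. CXCL16 is a transmembrane chemokine that the protease ADAM10 sheds and that binds CXCR6. UHRF1 and DNMT1 are the cofactor and the enzyme of maintenance DNA methylation, and loss of DNA methylation is known to induce interferon-type genes in colorectal cancer cells.

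A promoter stretch with a match to the NF-kB motif is shown for each gene because every chemokine promoter that could be searched held such a match. The NF-kB motif was searched as GGGANNNNCC and the interferon-stimulated response element as GAAANNGAAA, on both strands of the window from 250 bases before to 50 bases after each start site. Sequences and start sites came from RefSeq (GRCh38.p14). Of the 10 genes 8 had a window in the table, and CCL5 and CXCL16 had none. Capitals mark the matches to these letters, and each stretch runs 5′ to 3′ on the strand of its gene. The matched bases were not the same in all genes. On the gene's strand they were GGGAATTTCC in CXCL1, CXCL2, CXCL3 and CXCL5, but GGGATGGGCC in CXCL8 and GGGAAAACCC in CCL20. The CXCL8 stretch also holds tggaatttcc, which differs from GGGAATTTCC in its first base only, so the search left it unmarked.
CXCL1, chr4:73869304-73869333, plus strand: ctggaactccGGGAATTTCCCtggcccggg
CXCL2, chr4:74099254-74099283, minus strand: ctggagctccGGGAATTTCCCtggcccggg
CXCL3, chr4:74038749-74038778, minus strand: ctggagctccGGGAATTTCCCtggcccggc
CXCL5, chr4:73998749-73998778, minus strand: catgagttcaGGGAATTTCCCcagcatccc
CXCL8, chr4:73740442-73740501, plus strand: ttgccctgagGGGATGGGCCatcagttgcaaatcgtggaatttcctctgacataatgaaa
CXCL11, chr4:76036127-76036156, minus strand: gactcaaagaGGGAAATTCCtgtgccataa
CCL20, chr2:227813752-227813781, plus strand: ttgatcaatgGGGAAAACCCcatgtggcaa
CXCL10, chr4:76023570-76023728, minus strand: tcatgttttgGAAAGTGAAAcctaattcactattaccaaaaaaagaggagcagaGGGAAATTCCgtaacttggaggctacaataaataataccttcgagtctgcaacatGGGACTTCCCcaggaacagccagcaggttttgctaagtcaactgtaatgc

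All 8 windows held the NF-kB letters, which 25.6% of the 35116 windows in the table held. In CXCL1, CXCL2 and CXCL3 the match shown lay within 79 bases before the start site. Further matches lay on the other strand, outside the stretches shown. CXCL3 held GGGAGGTGCC from 17 to 26 after the start site. CCL20 held GGGAGAATCC from -207 to -198 and GGGATGGCCC from -21 to -12. The 30 bases shown were identical at 29 positions between CXCL1 and CXCL2, at 28 between CXCL1 and CXCL3 and at 29 between CXCL2 and CXCL3. The stretch of CXCL5 was identical to that of CXCL1 at 18 of 30 bases, the motif included. The letters of that shared match also fit the opposite strand, so these 4 genes each show an overlapping pair of matches. CXCL10 was the only one of the 8 with the interferon-stimulated response element, from -221 to -212, and 3.57% of all windows held it. The letters TATAAA stood on the gene's strand in CXCL8, CXCL11 and CCL20 and in 7.33% of all windows. The windows of CXCL1, CXCL2 and CXCL3 held 22, 22 and 24 CG dinucleotides, against a median of 14 over all windows. CXCL5 had 9, CXCL8 4, CXCL10 3, CCL20 3 and CXCL11 none. A match is a description of the letters and was not tested for binding.

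**Figure D1:**
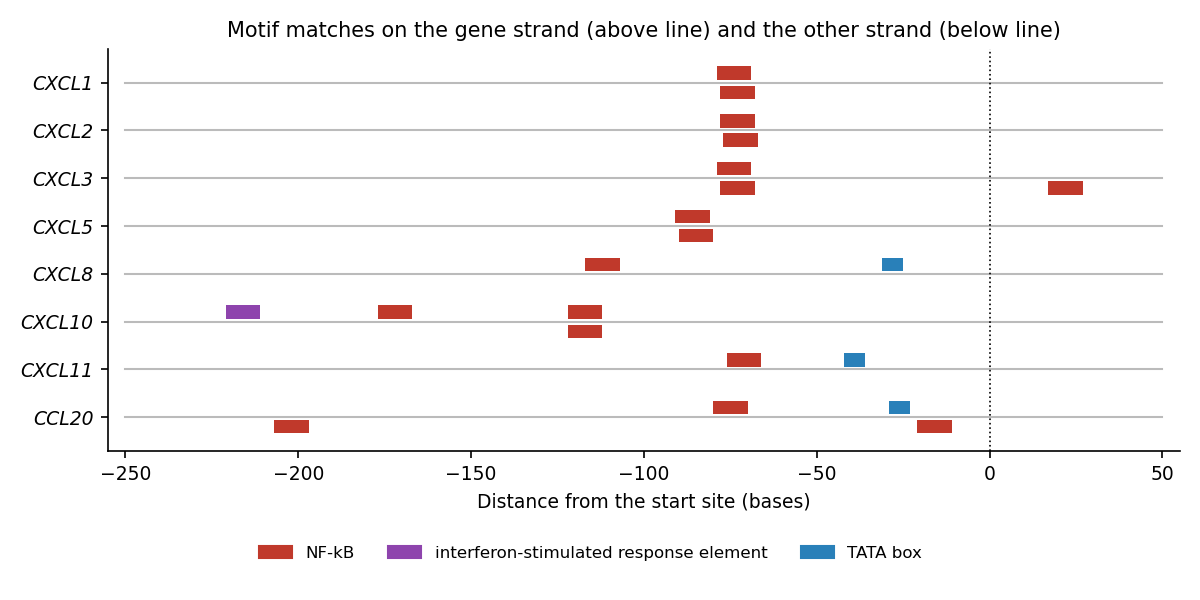
Positions of the NF-kB, interferon-stimulated response element and TATA box letters in the 8 chemokine promoters with a window in the table, as distance in bases from the start site, with matches on the gene strand above each line and those on the other strand below it. All 8 carry the NF-kB letters, CXCL10 alone carries the interferon element, and CXCL8, CXCL11 and CCL20 carry the TATA letters.

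Levels are given as counts per library and as CPM, for which edgeR's TMM method put all 24 libraries on 1 scale. CXCL16 held 93.6% of all counts on the 10 genes, with a mean of 75.5 CPM over the 24 libraries. CXCL8 followed at 3.07 CPM, and the other 8 were under 1 CPM. Their means were 0.679 CPM for CCL5, 0.515 for CXCL1, 0.356 for CXCL3, 0.235 for CXCL2, 0.217 for CXCL11, 0.108 for CXCL10, 0.0347 for CCL20 and 0.00261 for CXCL5. Per kilobase of exon the order of mean levels was the same, from 27.0 for CXCL16 and 1.35 for CXCL8 to 0.449 for CCL5 and 0.397 for CXCL1. On that scale CXCL16 lay above CXCL8, and CXCL8 above CCL5, in 24 of 24 libraries, whereas from CCL5 downward each gene lay above the next in only 8 to 18 of them. CXCL1, CXCL8 and CXCL16 had a count in all 24 libraries, CXCL3 in 23, CXCL2 in 21, CCL5 in 15, CXCL10 and CXCL11 in 11 each, CCL20 in 8 and CXCL5 in 1.

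The genes CXCL8, CXCL1, CXCL5, CXCL3 and CXCL2 lie together in chr4:73740506-74099293 and CXCL10 and CXCL11 in chr4:76021117-76041415 (hg38, spans as in the count tables). CXCL16 and CCL5 lie apart on chromosome 17, and CCL20 lies on chromosome 2. CXCL16 shared 85 of its 2794 exon bases with MED11 on the opposite strand, a gene with at most 236 counts in a library. CXCL2 and CXCL3 had 5.34% and 3.27% of their 100-base windows in common, so a few reads of these genes cannot be told apart.

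The libraries held between 15824804 and 25073821 counts on genes. By the folders recorded in the headers of the count tables, all 12 day 0 libraries shared 1 folder with the day 4 libraries of UHRF1-AID cells, without spike-in counts, and the other 9 libraries lay in another, with spike-in counts. Hence folder and day cannot be told apart in WT cells or in either line with DNMT1-AID, nor can folder and line between UHRF1-AID cells and the others at day 4. Within 1 folder were the comparisons with WT at day 0 and those of UHRF1-AID/DNMT1-AID or DNMT1-AID cells with WT at day 4. So were that of UHRF1-AID/DNMT1-AID with DNMT1-AID cells at day 4 and that of UHRF1-AID cells between the days. The degron acts on protein, so mRNA does not check it. At day 4 UHRF1 lay between 17.7 and 34.6 CPM in WT cells and between 34.7 and 80.7 in UHRF1-AID cells, and DNMT1 between 23.8 and 46.1 CPM in WT cells and between 13.2 and 16.7 in DNMT1-AID cells. Of 8 epithelial markers, EPCAM, CDH1, KRT8, KRT18, KRT19 and ELF3 had at least 433 counts in every library, whereas VIL1 and CEACAM5 had at most 7 and 1 counts. The summed level of 11 leukocyte markers at day 4 moved with the lines. It lay between 0.13 and 0.43 CPM in WT cells, between 2.31 and 2.92 in DNMT1-AID cells, between 7.13 and 9.56 in UHRF1-AID cells and between 8.69 and 10.46 where both proteins carried the degron. CD3D alone reached 121 counts in a library, while PTPRC reached 15, CD3E 2, NKG7 3, CD68 3 and MS4A1 1, and each of the 11 had a count somewhere. The summed level of 7 fibroblast markers, mostly COL1A1, moved as well at day 4, from between 3.34 and 9.01 CPM in WT cells and between 4.57 and 11.6 in UHRF1-AID cells to between 9.32 and 14.1 in DNMT1-AID cells and between 16.6 and 20.7 with both degrons. The part of these markers in the chemokine results was not tested, and in bulk RNA more cells with a transcript and more transcript per cell cannot be told apart.

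CCL5, CXCL8 and CXCL1 carried most of the called chemokine differences, and all calls over the 14 comparisons were upward. To be called, a gene needed an adjusted p under 0.05 in edgeR's quasi-likelihood test (Benjamini-Hochberg over all genes tested) and an absolute log2 fold change over 1. Low counts kept most of the 10 from being tested, since the filter left between 2 and 5 of them in a comparison. Against WT at day 4, 1 of the 4 tested in UHRF1-AID cells was called, where 6.99% of all genes tested were called. In DNMT1-AID cells it was 0 of 3 (2.57% of all genes). For UHRF1-AID/DNMT1-AID cells it was also 0 of 3 (11.7% of all genes). At an unadjusted p under 0.05 these 3 counts were 4, 1 and 2, where 33.0%, 24.1% and 46.9% of all genes tested passed that limit. Between day 0 and day 4, 0 of 2 were called in WT cells (11.9% of all genes), with 1 at an unadjusted p under 0.05, as were 46.2% of all genes. The same step gave 3 of 5 in UHRF1-AID cells (21.9% of all genes), 3 of 3 in DNMT1-AID cells (15.3%) and, with both degrons, 2 of 4 (26.6%), each of them higher at day 4. The genes that passed the filter did so partly through the group in which they were high. Where called, CCL5 and CXCL1 passed it only through that group. These counts thus describe the tested genes and not all 10.

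Before auxin no chemokine was called different from WT. The counts were 0 of 2 in UHRF1-AID cells (0.0% of all genes), 0 of 2 in DNMT1-AID cells (0.00723%) and, with both degrons, 0 of 3 (1.31%), with 0, 0 and 1 at an unadjusted p under 0.05 (3.69%, 5.14% and 20.2% of all genes). For UHRF1-AID cells before auxin 512 of 13894 genes had an unadjusted p under 0.05, and DESeq2 called 7. Among the degron lines at day 4, 1 of 4 was called between UHRF1-AID and DNMT1-AID cells (5.31% of all genes). Between UHRF1-AID/DNMT1-AID cells and DNMT1-AID cells it was 0 of 3 (6.84% of all genes), with 2 at an unadjusted p under 0.05, as were 32.9% of all genes. The change over the days was also set against that in WT cells. In DNMT1-AID cells 0 of 3 differed (0.139% of all genes), with 0 at an unadjusted p under 0.05 (12.7% of all genes), and with both degrons 1 of 3 did, CXCL8 (5.41% of all genes). Several of these comparisons share their control libraries.

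**Figure D2:**
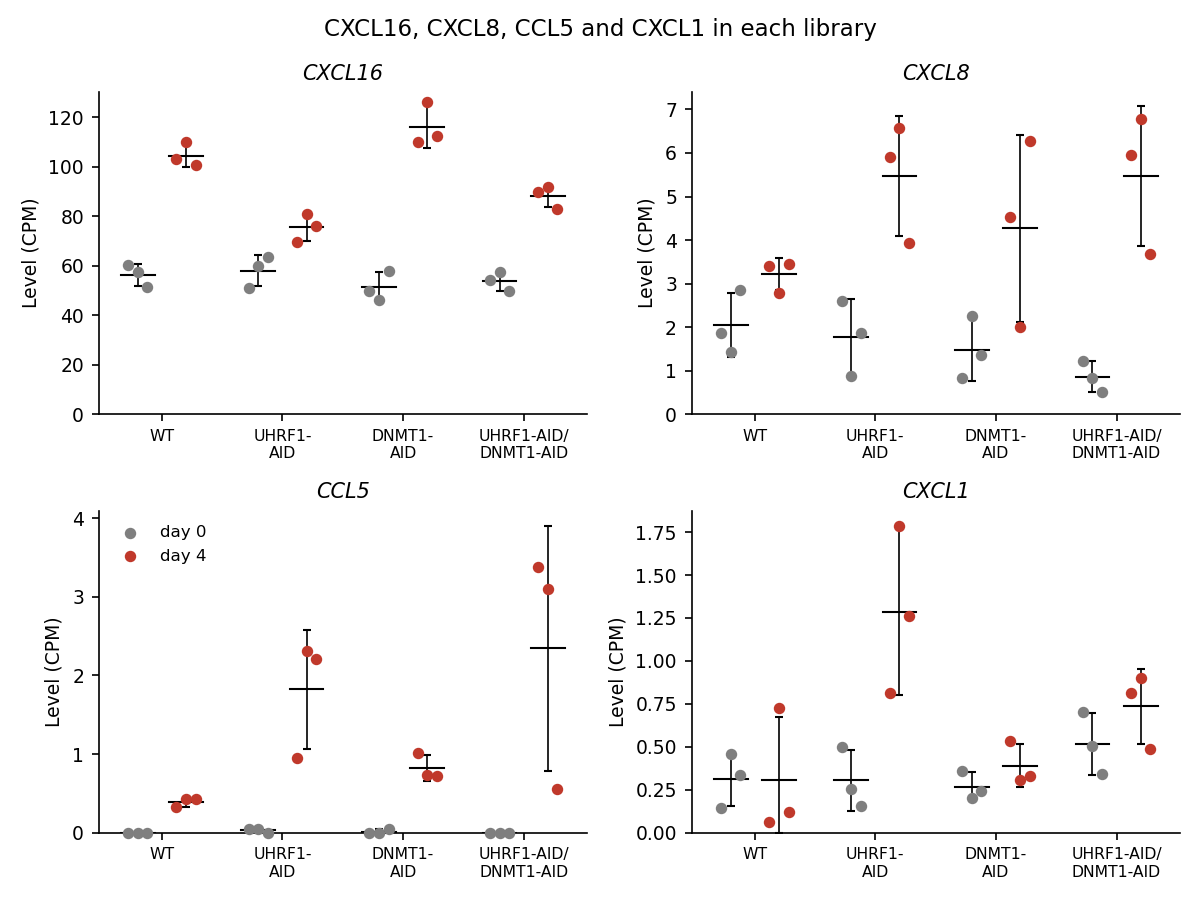
Levels in CPM of CXCL16, CXCL8, CCL5 and CXCL1 in each of the 24 libraries (points), with the mean of each group of 3 (horizontal line) and its SD (bars, cut at 0), before auxin (grey) and after 4 days (red). CXCL16 is at or above 46.0 CPM in every library, CCL5 is near 0 in all lines at day 0, and replicate 3 of the UHRF1-AID/DNMT1-AID cells is the lowest of its day 4 group in all 4 panels.

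CXCL8, the main neutrophil attractant of the set and the next most abundant of the 10 after CXCL16, was low before auxin. At day 0 WT cells had 38, 28 and 51 counts, UHRF1-AID cells 52, 17 and 47, and DNMT1-AID cells 16, 45 and 28. The UHRF1-AID/DNMT1-AID libraries had 28, 20 and 12. Those were the lowest as a group, and in CPM each lay below each WT library. At day 4 WT cells had 53, 46 and 56 counts, UHRF1-AID cells 124, 125 and 87, and DNMT1-AID cells 76, 33 and 95. With both degrons the counts were 95, 105 and 60. In CPM the libraries of both lines with a degron on UHRF1 now lay above the WT libraries, whereas those of DNMT1-AID cells fell on both sides of them. The mean level was 2.05 ± 0.731 CPM (SD, n = 3) at day 0 and 3.22 ± 0.371 at day 4 in WT cells. It was 0.860 ± 0.358 and 5.46 ± 1.61 CPM with both degrons.

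Against WT at day 4 the log2 fold change of CXCL8 in UHRF1-AID cells was 0.80 (SE 0.26, adjusted p = 0.062, edgeR's quasi-likelihood test). In DNMT1-AID cells it was 0.41 (SE 0.35, adjusted p = 0.502, edgeR). UHRF1-AID/DNMT1-AID cells gave 0.77 (SE 0.25, adjusted p = 0.0203, edgeR), below the size required for a call and with adjusted p up to 0.160 in the refits. Between day 0 and day 4 CXCL8 rose in each degron line, with overlapping libraries in DNMT1-AID cells, and only UHRF1-AID cells stayed in 1 folder. On the log2 scale it rose by 1.65 (SE 0.37, adjusted p = 0.00494, edgeR) in UHRF1-AID cells and by 1.52 (SE 0.47, adjusted p = 0.0289) in DNMT1-AID cells. With both degrons it rose by 2.65 (SE 0.32, adjusted p = 1.05e-06, edgeR), while the difference in WT cells was 0.64 (SE 0.29, adjusted p = 0.113). The DNMT1-AID call was kept in 9 of 13 refits. It was lost, with adjusted p up to 0.117, with the replicate block, without DNMT1-AID day 0 replicate 1 and without DNMT1-AID day 4 replicate 1 or 3.

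The change of CXCL8 with both degrons exceeded that in WT cells by 1.96 on the log2 scale (SE 0.47, adjusted p = 0.0108, edgeR, 12 libraries), and both lines had their days in the same pair of folders. That difference held the lower start of these cells as well as their higher end. At day 0 CXCL8 stood at -1.24 against WT on the log2 scale (SE 0.39, adjusted p = 0.120, edgeR), and with no filter the adjusted p was 0.0322. Set against WT in the same way, the change in DNMT1-AID cells gave 0.88 (SE 0.59, adjusted p = 0.508, edgeR).

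CXCL1, CXCL2, CXCL3 and CXCL5, the neighbours of CXCL8 that share its receptor, were near the limit of detection, and CXCL1 was the only one of them called. CXCL1 had 17, 34 and 28 counts in UHRF1-AID cells at day 4, against 10, 5 and 4 at day 0. WT cells had 3, 9 and 6 counts at day 0 and 1, 12 and 2 at day 4, and DNMT1-AID cells 7, 4 and 5 and then 9, 5 and 5. The double degron line, UHRF1-AID/DNMT1-AID, had 16, 12 and 8 and then 13, 14 and 8. All 3 UHRF1-AID day 4 libraries thus held more CXCL1 counts than any other of the 24, whereas in CPM the lowest of them overlapped the UHRF1-AID/DNMT1-AID libraries of day 4. In the comparisons of these UHRF1-AID day 4 libraries with 1 other group, CXCL1 passed the filter only through them, where it was high. Within UHRF1-AID cells, in 1 folder, CXCL1 rose by 2.12 on the log2 scale (SE 0.51, adjusted p = 0.00686, edgeR), a call kept in 12 of 12 refits. Against DNMT1-AID cells at day 4 it was higher by 1.70 (SE 0.47, adjusted p = 0.0395, edgeR). That call was kept in 6 of 12 refits, with adjusted p up to 0.139. It was lost with the replicate block, without UHRF1-AID day 4 replicate 2 or 3 and without any 1 of the DNMT1-AID day 4 replicates. Against WT at day 4 the difference of 2.07 (SE 0.68, adjusted p = 0.064, edgeR) did not pass. The 12 counts of WT replicate 2 bore on it, since without that library the difference was 3.70 and called. It was also called with DESeq2 (2.08, adjusted p = 0.0465) and, in edgeR, with the replicate block, the length offset, no filter or all 24 libraries in 1 fit (adjusted p between 0.0026 and 0.0404). For UHRF1-AID/DNMT1-AID cells the difference from WT at day 4 was 1.23 (SE 0.65, adjusted p = 0.147, edgeR), and without the same WT library it was 2.86 and called.

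CXCL3 had fewer counts at day 4 in some lines, without a call. DNMT1-AID cells had 15, 11 and 5 counts at day 0 and 2, 1 and 3 at day 4, so the libraries did not overlap, and UHRF1-AID cells had 18, 13 and 7 and then 0, 4 and 12. WT cells had 8, 4 and 4 and then 2, 5 and 6. The UHRF1-AID/DNMT1-AID libraries had 5, 10 and 8 and then 8, 10 and 4, with no shift between the days. In UHRF1-AID cells the fitted difference between the days was -1.18 (SE 0.81, adjusted p = 0.255, edgeR). In DNMT1-AID cells CXCL3 was below the filter, and the level from summed counts at day 0 was 4.17 times that at day 4. A fit of all 24 libraries gave -2.01 there with an adjusted p of 0.0476 (edgeR), and with no filter the adjusted p was 0.0784.

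CXCL2 never exceeded 10 counts. It had 3, 8 and 0 counts in WT and 8, 8 and 4 in UHRF1-AID cells at day 0, and 0, 5 and 5 in WT and 4, 3 and 9 in UHRF1-AID cells at day 4. DNMT1-AID cells had 4, 4 and 2 and then 6, 0 and 4, and the UHRF1-AID/DNMT1-AID libraries 10, 5 and 1 and then 6, 3 and 6. No group of CXCL2 stood apart from another in any of the 12 comparisons of 6 libraries. CXCL5 had 1 count in all 24 libraries, with both degrons at day 4, and gives no comparison.

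CXCL16, the transmembrane chemokine, was the only abundant member, and in all 4 lines it was higher at day 4. At day 0 WT cells had 1233, 1126 and 919 counts, UHRF1-AID cells 1021, 1161 and 1603, and DNMT1-AID cells 966, 917 and 1202. With both degrons the counts were 1233, 1370 and 1165. These ranges overlapped. At day 4 WT cells had 1605, 1811 and 1631 counts, UHRF1-AID cells 1463, 1540 and 1684, and DNMT1-AID cells 1847, 2072 and 1703. The double degron line, UHRF1-AID/DNMT1-AID, had 1433, 1423 and 1358. In CPM every day 4 library of a line lay above every day 0 library of that line. The mean level went from 56.4 ± 4.50 to 105 ± 4.73 CPM (SD, n = 3) in WT cells and from 58.0 ± 6.39 to 75.6 ± 5.57 in UHRF1-AID cells. It went from 51.3 ± 6.10 to 116 ± 8.70 CPM in DNMT1-AID cells and, with both degrons, from 53.8 ± 3.85 to 88.2 ± 4.55.

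Between the days CXCL16 rose by 1.17 on the log2 scale (SE 0.13, adjusted p = 7.8e-05, edgeR) in DNMT1-AID cells, the only line in which it passed the required size. The other lines passed the adjusted p alone. The change was 0.87 (SE 0.11, adjusted p = 0.000602, edgeR) in WT cells, 0.42 (SE 0.12, adjusted p = 0.0179, up to 0.0792 in the refits) in UHRF1-AID cells and, with both degrons, 0.70 (SE 0.08, adjusted p = 4.73e-07). Only UHRF1-AID cells stayed in 1 folder between the days, so line and folder cannot be told apart in their smaller change. At day 4 the level was highest in DNMT1-AID cells, followed by WT, and DNMT1-AID cells differed from WT by 0.16 (SE 0.09, adjusted p = 0.316, edgeR). Both lines with a degron on UHRF1 were lower than WT, below the required size. The log2 fold change was -0.43 (SE 0.11, adjusted p = 0.0228, edgeR) in UHRF1-AID cells, across folders and with adjusted p up to 0.0932 in the refits. It was -0.24 (SE 0.09, adjusted p = 0.0496, edgeR) for UHRF1-AID/DNMT1-AID cells, within 1 folder, with adjusted p up to 0.158 in the refits. Against DNMT1-AID cells at day 4 CXCL16 stood at -0.62 (SE 0.11, adjusted p = 0.00971, edgeR) in UHRF1-AID cells, across folders. With both degrons it stood at -0.40 (SE 0.09, adjusted p = 0.00339, edgeR), within 1 folder and with adjusted p up to 0.0177 in 13 refits. Set against WT, the change between the days differed by 0.31 (SE 0.16, adjusted p = 0.433, edgeR) in DNMT1-AID cells and, with both degrons, by -0.21 (SE 0.14, adjusted p = 0.331).

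CCL5, which recruits T cells and monocytes, was all but absent before auxin and present in every day 4 library. Its 12 day 0 libraries held 3 counts in all, 2 in UHRF1-AID and 1 in DNMT1-AID cells. At day 4 WT cells had 5, 7 and 7 counts, UHRF1-AID cells 20, 44 and 49, and DNMT1-AID cells 17, 12 and 11. The UHRF1-AID/DNMT1-AID libraries had 54, 48 and 9. Every library of the 3 degron lines lay above every WT library at day 4, and replicate 3 of the UHRF1-AID/DNMT1-AID cells stood far below the other two of its group. The mean level at day 4 was 0.393 ± 0.0618 CPM (SD, n = 3) in WT, 1.83 ± 0.757 in UHRF1-AID and 0.823 ± 0.163 in DNMT1-AID cells. With both degrons it was 2.34 ± 1.56 CPM.

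In UHRF1-AID cells CCL5 was higher than in WT cells at day 4 by 2.23 on the log2 scale (SE 0.46, adjusted p = 0.0104, edgeR). That comparison lies across folders, and CCL5 passed its filter only through the UHRF1-AID libraries, where it was high. The call was kept in 11 of 12 refits, with an adjusted p of 0.0513 (edgeR) without WT replicate 1. In DNMT1-AID cells the difference was 1.06 (SE 0.48, adjusted p = 0.191, edgeR). For UHRF1-AID/DNMT1-AID cells the 9 counts of replicate 3 kept CCL5 below the filter. Its summed counts there were 111 against 19 in WT cells, a ratio of 5.90 (95% exact interval 3.60 to 10.2, counting error only). With no filter the difference was 2.54 (SE 0.45, adjusted p = 3.11e-07, edgeR). Between UHRF1-AID/DNMT1-AID cells and DNMT1-AID cells at day 4 it was 1.49 (SE 0.54, adjusted p = 0.0699, edgeR), with overlapping libraries, and without replicate 3 of the former it was 1.96 and called. DESeq2 called it too (adjusted p = 0.0331), as did edgeR with no filter (adjusted p = 0.00293). Between UHRF1-AID and DNMT1-AID cells it was 1.14 (SE 0.43, adjusted p = 0.0993, edgeR), and without UHRF1-AID replicate 1 it was 1.45 and called.

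Between the days CCL5 was called higher in each of the 3 degron lines, where it passed the filter only through the day 4 libraries. Folds from summed counts are given, with a floor of 3 counts over the group where the day 0 group had none. CCL5 was higher by 58.9-fold (95% exact interval 15.9 to 492, counting error only) in UHRF1-AID cells and by 49.6-fold (8.41 to 2008) in DNMT1-AID cells. With both degrons it was at least 54.2-fold higher. The former ratios rest on 2 and 1 counts at day 0 and the last is a bound, so they give no order of the lines. The adjusted p in edgeR's test was 0.000247, 0.000796 and 0.00207 in that order. In WT cells CCL5 was at least 7.60-fold higher at day 4, below the filter, and with no filter the adjusted p was 0.00178 (edgeR). The fitted fold changes depend on the prior count at these day 0 levels and are not used. Set against WT, the change in DNMT1-AID cells differed by -0.69 (SE 0.76, adjusted p = 0.701, edgeR), a value of either sign in the refits (-1.12 to 1.07).

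CXCL10 and CXCL11, the CXCR3 ligands of the interferon response, were seen almost wholly at day 4. At day 0 CXCL10 had 1 count and CXCL11 had 3 counts over 12 libraries. At day 4 CXCL11 had 0, 0 and 2 counts in WT cells, 3, 20 and 3 in UHRF1-AID cells and 6, 0 and 2 in DNMT1-AID cells. With both degrons the counts were 23, 21 and 5. For CXCL11 all libraries of both lines with a degron on UHRF1 lay above the WT libraries, whereas those of DNMT1-AID cells overlapped them. A single library, UHRF1-AID replicate 2, held 20 of the 26 CXCL11 counts of its group. CXCL10 had 2, 0 and 0 counts in WT cells, 2, 5 and 2 in UHRF1-AID cells and 2, 4 and 7 in DNMT1-AID cells. The double degron line, UHRF1-AID/DNMT1-AID, had 9, 7 and 2. For CXCL10 each line overlapped WT in CPM.

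Neither CXCL10 nor CXCL11 passed the filter in any comparison, so their differences rest on summed counts and on the alternatives. CXCL11 had 49 counts with both degrons against 2 in WT cells at day 4, a ratio of 24.7 (95% exact interval 6.49 to 210, counting error only). In UHRF1-AID cells it had 26, a ratio of 10.1 (2.53 to 87.8). For CXCL10 the ratio to WT was 3.50 (0.723 to 33.2) in UHRF1-AID cells, 6.49 (1.47 to 59.2) in DNMT1-AID cells and, with both degrons, 9.09 (2.18 to 80.7). With no filter, the log2 fold change of CXCL11 with both degrons was 4.39 (SE 0.87, adjusted p = 4.97e-06, edgeR), and in UHRF1-AID cells it was 3.23 (SE 1.10, adjusted p = 0.0263). In a fit of all 24 libraries these adjusted p were 0.00801 and 0.0781 (edgeR). CXCL10 with no filter had an adjusted p of 0.0546 (edgeR) with both degrons, 0.508 in UHRF1-AID cells and 0.319 with DNMT1-AID alone.

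Between the days CXCL11 was at least 23.9-fold higher with both degrons and, with UHRF1-AID alone, at least 9.03-fold higher, against the floor of 3 counts over the group. CXCL10 was at least 5.38-fold higher in DNMT1-AID cells and at least 3.13-fold higher in those with UHRF1-AID alone. Between UHRF1-AID/DNMT1-AID cells and DNMT1-AID cells at day 4, within 1 folder, CXCL11 differed by 6.195-fold (95% exact interval 2.91 to 15.1, counting error only) and CXCL10 by 1.40-fold (0.649 to 3.11). For both genes the libraries of these lines overlapped in CPM.

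CCL20, the ligand of CCR6 and a mucosal chemokine, had 15 counts over the 24 libraries. The highest library held 4 counts, UHRF1-AID/DNMT1-AID replicate 3 at day 4, whose group had 0, 1 and 4 counts against 0, 0 and 0 in WT cells. No difference of CCL20 was detectable at this depth.

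**Figure D3:**
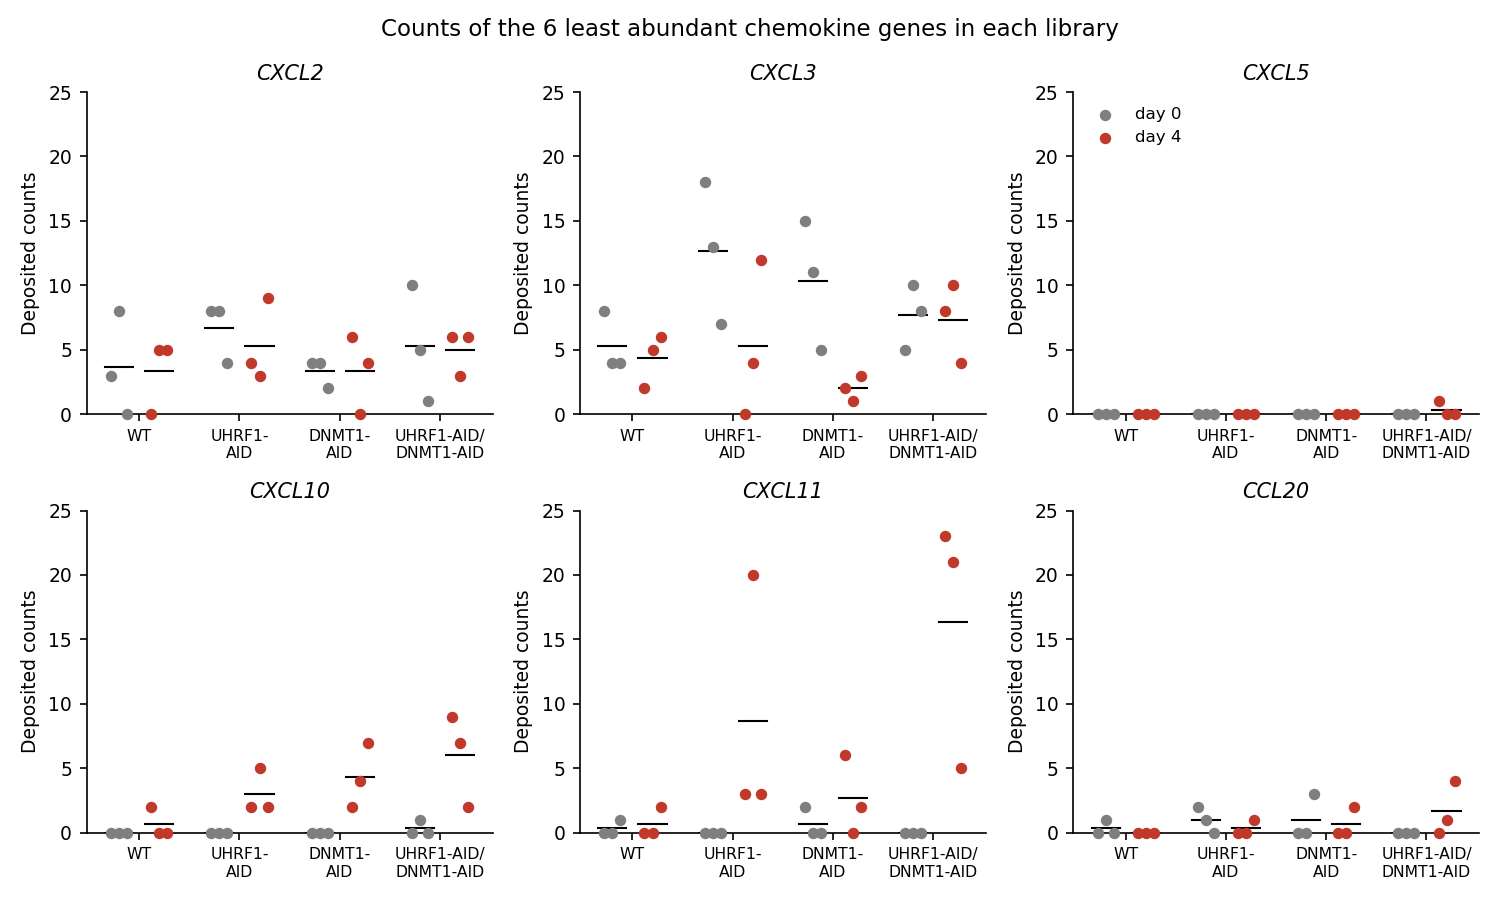
Deposited counts of CXCL2, CXCL3, CXCL5, CXCL10, CXCL11 and CCL20 in each library (points), with the group mean as a line, before auxin (grey) and after 4 days (red), on 1 common axis from 0 to 25 counts. CXCL10 and CXCL11 are at or near 0 at day 0 and reach 9 and 23 counts at day 4, CXCL2 and CXCL3 are spread over both days, and CXCL5 and CCL20 stay at or below 4 counts.

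The CXCR2 ligands were also summed, over CXCL1, CXCL2, CXCL3, CXCL5 and CXCL8. At day 0 the sum was 2.82 ± 0.516 CPM (SD, n = 3) in WT, 3.02 ± 1.196 in UHRF1-AID and 2.44 ± 0.681 in DNMT1-AID cells. With both degrons it was 1.93 ± 0.675. At day 4 it was 3.99 ± 0.348 CPM in WT, 7.26 ± 1.32 in UHRF1-AID and 4.99 ± 2.395 in DNMT1-AID cells, and 6.997 ± 1.97 with both degrons. The sum of CXCL10, CXCL11 and CCL5 was at most 0.103 CPM in a day 0 library. At day 4 it was 0.476 ± 0.0694 CPM in WT, 2.42 ± 1.22 in UHRF1-AID and 1.26 ± 0.262 in DNMT1-AID cells, and 3.76 ± 2.42 with both degrons. CXCL8 made up most of the first sum at day 4, with 5.47 CPM in UHRF1-AID cells and 5.46 with both degrons. CCL5 made up most of the second, with 1.83 and 2.34 CPM in the same order. Both sums are described without a test.

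**Figure D4:**
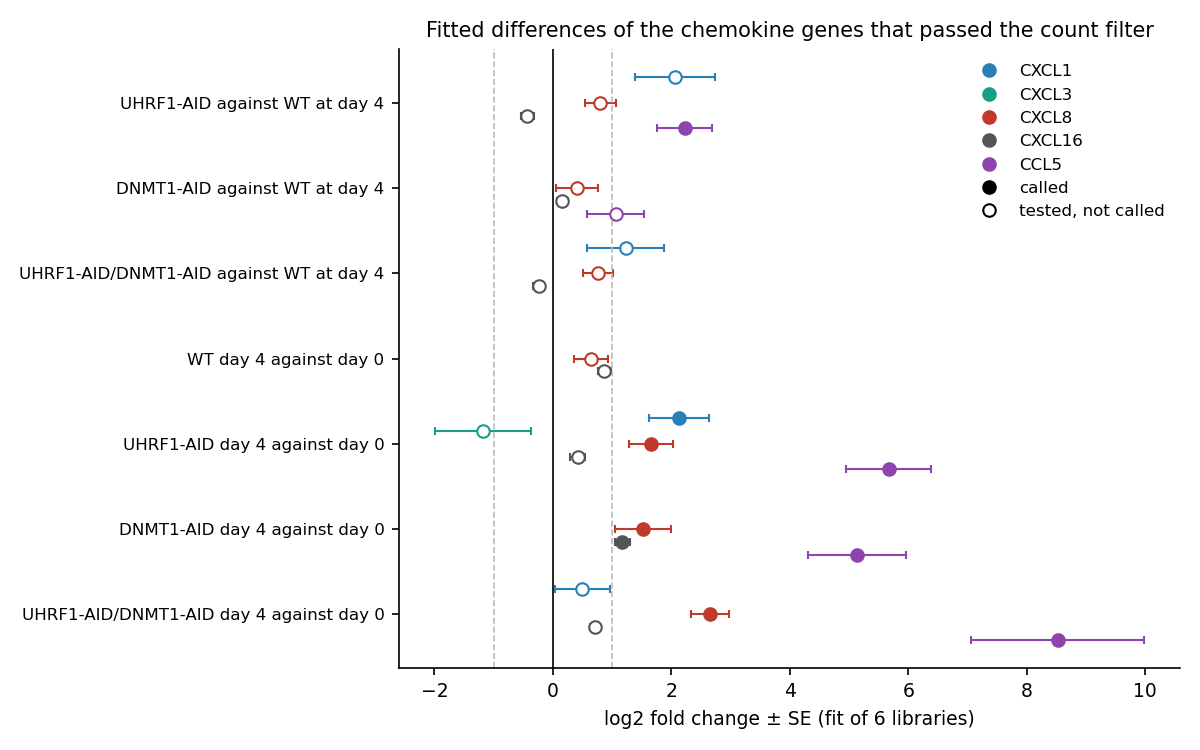
log2 fold changes with their standard errors from edgeR for the chemokine genes that passed the count filter, in 3 comparisons with WT at day 4 and in the 4 lines between the days, with filled points for called genes and open points for those tested and not called. CCL5 is the only filled point against WT at day 4, at 2.23 in UHRF1-AID cells, and CXCL8 is filled in the 3 degron lines between the days, while the positions of CCL5 between the days depend on the prior count.

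Of the other chemokine ligands 19 of 36 had no count in any library and 7 reached 10 counts in a library. At day 4 none was tested against WT in UHRF1-AID or DNMT1-AID cells, and the 2 tested with both degrons were called higher. Both passed the filter through the group in which they were high, so the count describes these 2 genes and not the 36. CCL26, a CCR3 ligand, was higher by 2.49 on the log2 scale (SE 0.65, adjusted p = 0.0046, edgeR), and XCL1, the ligand of XCR1, had 38 counts against 0 in WT cells (adjusted p = 0.000118, edgeR). Of 23 receptors 5 reached 10 counts, CXCR4, CCR3, CCR10, ACKR2 and CCRL2. Against WT at day 4 the filter left 2 of the 23 with UHRF1-AID alone, 1 with DNMT1-AID alone and 2 with both degrons. None of those tested was called, where 6.99%, 2.57% and 11.7% of all genes tested were called, in the same order. The other receptors were not tested there. CXCR4, the receptor of CXCL12, was called lower at day 4 than at day 0 in each line but UHRF1-AID. The lines with that call also changed folder between the days, so day and folder cannot be told apart there.

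The interferon route to CXCL10, CXCL11 and CCL5 was held as a list of 30 genes for interferons, their receptors, STATs, IRFs and RNA and DNA sensors. At day 4, 8 of 25 tested members were called higher than in WT in UHRF1-AID cells, where 5.77% of all genes were, with a median log2 fold change of 0.45 against 0.03 over all genes tested. In DNMT1-AID cells it was 6 of 24 (2.29% of all genes, median 0.38 against 0.00). With both degrons it was 10 of 27 (9.21% of all genes, 0.35 against 0.02), and none was lower in any of the 3. IRF7, which drives interferon genes, was the member named in all 3, higher by 1.51 (SE 0.16, adjusted p = 0.00036, edgeR) in UHRF1-AID cells, by 1.23 (SE 0.12) in DNMT1-AID cells and by 1.84 (SE 0.11) with both degrons. DHX58 (LGP2), an RNA helicase of the RIG-I family, was higher by 3.65 (SE 0.30) in UHRF1-AID and 2.99 (SE 0.23) in DNMT1-AID cells. IFIH1 (MDA5), a sensor of double-stranded RNA, was higher by 1.62 (SE 0.15) in UHRF1-AID cells, and ISG15, a ubiquitin-like protein made on interferon, by 1.38 (SE 0.12) in DNMT1-AID cells. With both degrons IFNL2, an interferon lambda, had 72 counts over 3 libraries against 3 in WT cells (adjusted p = 0.000223, edgeR), and SOCS1, an inhibitor of JAK signalling, was higher by 1.52 (SE 0.21). IFNL2 passed the filter through the group in which it was high, so the counts of called members describe the tested ones only. Between the days 9 of 24 members were called higher in WT cells themselves, against 10 of 24 with DNMT1-AID alone, 10 of 25 with UHRF1-AID alone and 15 of 28 with both degrons. Of all genes tested 5.37%, 8.62%, 12.1% and 15.1% were called higher there, in the same order.

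For the lists that follow, the shares of all genes called at day 4 were 6.99% in UHRF1-AID cells, 2.57% with DNMT1-AID alone and 11.7% with both degrons, and the all-gene medians were 0.03, 0.00 and 0.02. Called higher were 5.77%, 2.29% and 9.21%, and called lower 1.22%, 0.28% and 2.49%, in the same order. A gene near 0 in WT cells, such as TNFRSF1B, passed the filter through the group in which it was high. The called counts of these lists therefore describe the tested genes and not the whole lists. Of 26 subunits, inhibitors and activators of NF-kB, 1 of 24 tested was called in UHRF1-AID cells at day 4 (median 0.23). This was NFKBIZ, a nuclear cofactor of NF-kB, higher by 2.34 (SE 0.49, adjusted p = 0.0106, edgeR). None of 25 was called in DNMT1-AID cells (median 0.05) or with both degrons (median 0.10). Of 24 cytokines and receptors upstream of NF-kB, 3 of 16 tested were called higher in UHRF1-AID cells (median 0.40) and 1 of 14 in DNMT1-AID cells (median 0.24). With both degrons 4 of 16 were higher and 1 lower (median 0.47). TNFRSF1B, a receptor of TNF, had 0.145 CPM in WT cells, 5.57 with DNMT1-AID alone, 25.1 with UHRF1-AID alone and 29.6 with both degrons. Its log2 fold changes against WT were 5.20 (SE 0.40), 7.41 (SE 0.29) and 7.61 (SE 0.27) in that order. IL32, a proinflammatory cytokine, was higher by 4.42 (SE 0.70) in UHRF1-AID cells and by 4.97 (SE 0.51) with both degrons. MYD88, the adaptor of interleukin 1 and Toll-like receptors, was higher by 1.03 (SE 0.22, adjusted p = 0.0169, edgeR) in UHRF1-AID cells, near the required size. LIF, a cytokine of the interleukin 6 family, stood at -1.66 (SE 0.14) with both degrons.

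Of 12 other genes that NF-kB induces, 11 of them in the tables, 1 of 9 tested was called higher in UHRF1-AID cells (median -0.16) and 1 of 9 in DNMT1-AID cells (median 0.12). With both degrons 4 of 10 were higher and 2 lower (median -0.14). ICAM1, the adhesion molecule that leukocytes bind, was called in all 3, at 4.35 (SE 0.37), 1.93 (SE 0.49) and 4.05 (SE 0.38), and the DNMT1-AID call, at an adjusted p of 0.0269 in edgeR's test, was lost in 5 alternatives. PLAU (urokinase) and IER3 were the lower ones, at -1.58 (SE 0.14) and -1.001 (SE 0.10). Of 11 AP-1 and C/EBP factors, FOS was called higher by 1.23 (SE 0.21) and FOSL1 lower, at -1.17 (SE 0.21), in UHRF1-AID cells. FOSL1 stood at -1.31 (SE 0.12) with both degrons, and no factor of that list was called in DNMT1-AID cells. Of 10 genes for chemokine mRNA decay and protein processing, ADAM10 among them, 1 was called at day 4, ZFP36L1, which binds AU-rich elements, at -1.12 (SE 0.16) with both degrons.

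**Figure D5:**
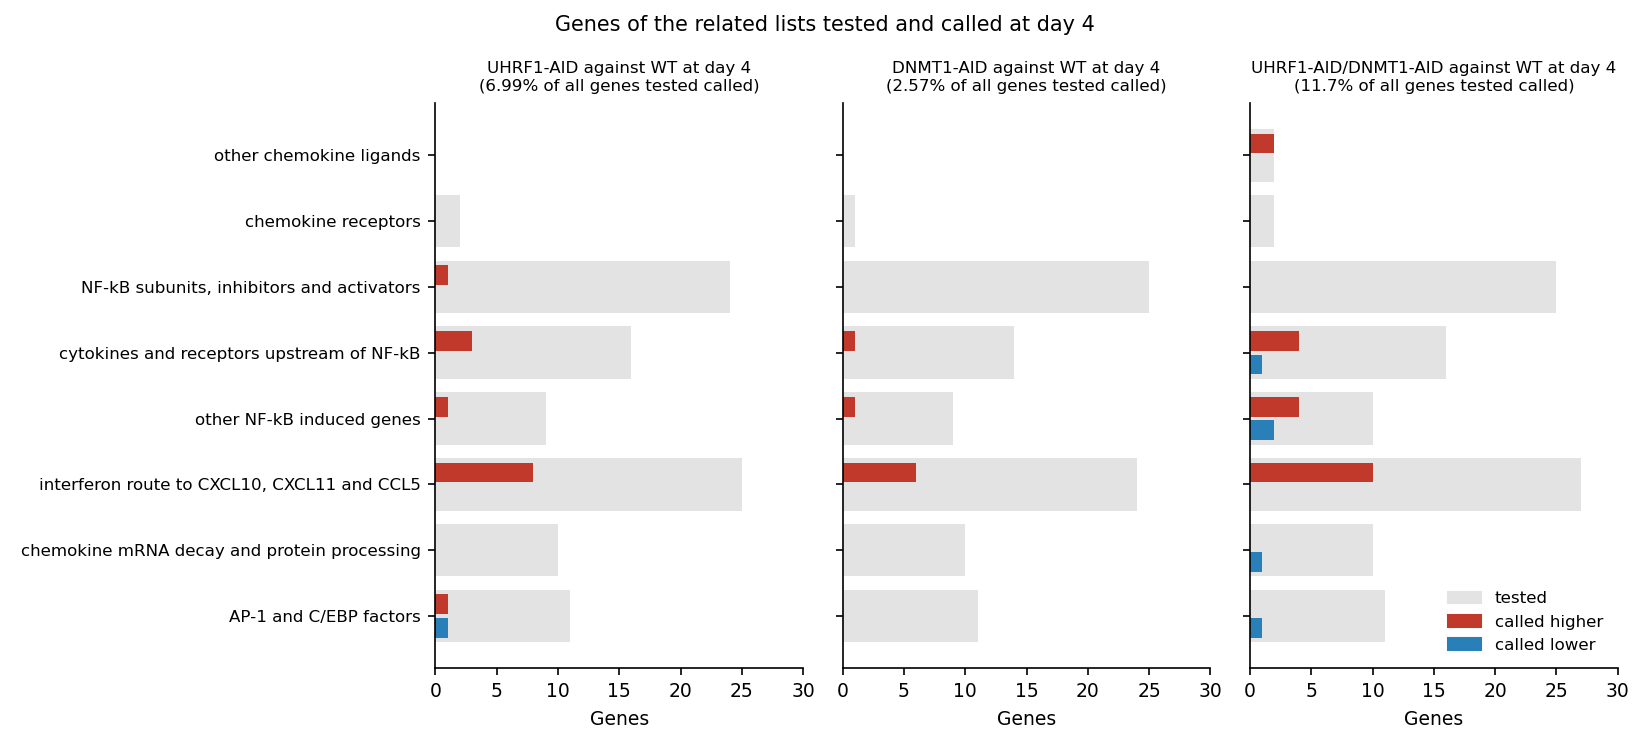
Number of genes of each related list that were tested (grey), called higher (red) and called lower (blue) against WT at day 4, with 1 panel for each degron line, with the share of all genes called above each panel. In its panels the interferon list has 8 (UHRF1-AID), 6 (DNMT1-AID) and 10 (both degrons) genes called higher and none lower.

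Within 500000 bases of the cluster from CXCL8 to CXCL2 lay 29 other genes, 15 with a count, and none of the 5 tested was called higher at day 4. Called lower than in WT cells were 2 of 5 in UHRF1-AID cells (1.22% of all genes) and 2 of 5 with both degrons (2.49%). In DNMT1-AID cells it was 0 of 5 (0.28%). The 2 genes were the growth factors EREG and AREG. They stood at -1.82 (SE 0.15) and -1.61 (SE 0.15) in UHRF1-AID cells and at -2.74 (SE 0.11) and -1.84 (SE 0.10) with both degrons. Around CXCL10 and CXCL11 lay 28 other genes, 17 with a count. Against WT at day 4, 1 of 11 tested was called in UHRF1-AID cells (6.99% of all genes). It was 0 of 10 in DNMT1-AID cells (2.57%) and 1 of 11 with both degrons (11.7%). The called gene was ART3, a mono-ADP-ribosyltransferase whose span holds both CXCL10 and CXCL11 on the opposite strand with no exon base in common. ART3 had 67 counts in UHRF1-AID cells and 105 with both degrons against 0 in WT cells (adjusted p = 0.00271 and 5.97e-07, edgeR). It passed the filter only through these groups, in which it was high. The counting is not stated to use strand, and reads of ART3 in the exons of CXCL10 and CXCL11 were not looked for.

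Over the 24 libraries the genes whose log2(CPM + 1) followed that of CXCL8 most closely, among 12966 genes with a mean of at least 1 CPM, were IL1RAP, the interleukin 1 receptor accessory protein (Pearson r = 0.922), SERPINB8 (0.917) and ZNF641 (0.913). Within the folder of 15 libraries these values were 0.959, 0.897 and 0.929, and within that of 9 libraries 0.803, 0.836 and 0.616. For CXCL16 they were GALNT5 (0.95), C1orf116 (0.949) and OVOL1 (0.945), with 0.900, 0.895 and 0.758 within the folder of 15 and 0.917, 0.581 and 0.865 within that of 9. The libraries share groups, days and folders, so these values describe likeness over the libraries only.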

How the data were processed

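RNA-seq of 24 HCT116 libraries (8 groups of 3) was used. Per the submitters' processing notes and the study's methods, reads were trimmed, aligned with STAR to hg38 and assigned to genes by featureCounts. The deposited values are raw counts per gene, 1 library per table, not normalized, with no statement on strand or on reads with several alignments. Of 58735 genes 58207 had a symbol. Each table also lists 92 spike-in sequences, which made up 0.891% to 1.65% of all counts in 9 libraries and were at 0 in the other 15. Neither library sizes nor tests include them.

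Differences were computed from the counts in R 4.3.3 with edgeR 4.0.16: filterByExpr within the libraries compared, TMM, robust quasi-likelihood fits of group alone, and Benjamini-Hochberg adjustment over all genes tested. Each of 12 comparisons used its 6 libraries, and the difference of day effects used 12. Ratios of summed counts have exact 95% intervals, which, like the floor of 3 counts, cover counting error only. The chemokine genes, the related lists and the lists of markers were chosen with earlier results of these data known. The text names all 10 chemokines, UHRF1 and DNMT1, up to 3 called genes with the smallest p per list and comparison with WT at day 4, the called neighbours on chromosome 4 and, for chemokines with a mean of at least 1 CPM, the 3 genes most alike. Markers, CXCR4 and other receptors with counts, and MED11 were named outside that rule, after their values were seen.

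Alternatives were RLE scaling, no filter, at least 10 counts per library, 1 fit of all 24 libraries, a replicate block, DESeq2 1.42.0 (the study's tool), an offset for a trend with gene length, no minimum fold change, and leaving out each library in turn (96 fits). Pairing was checked by correlating, across genes, how same-numbered libraries deviate from their group means. Only in UHRF1-AID cells between the days were all 3 values over 0.1 (0.288, 0.176 and 0.156), a hint from the data and not from the labels. Fits were tested on simulated counts. Promoters came from RefSeq (GRCh38.p14). Python 3.11.15 with pandas 2.3.3 and matplotlib 3.10.9 made the figures.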

Additional observations from a re-analysis of the deposited data

Results flagged for a closer look

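The change of CXCL8 between day 0 and day 4 differed between lines by a test of the difference itself. It was larger in UHRF1-AID/DNMT1-AID than in WT cells by 1.96 on the log2 scale (SE 0.47, adjusted p = 0.0108, edgeR's quasi-likelihood test, 12 libraries). All 6 UHRF1-AID/DNMT1-AID libraries bear it, with 12 to 28 counts at day 0 and 60 to 105 at day 4, against 28 to 51 and 46 to 56 in WT cells. In 19 of 19 refits it was called, with values between 1.68 and 2.29 and adjusted p up to 0.0366. The change in UHRF1-AID cells was not set against that in WT cells, because these lines did not change folder alike between the days.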

How the results depend on the processing

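For UHRF1-AID against WT at day 4 the count of 1 chemokine gene called became 3 with no filter, 0 with at least 10 counts in every library, and 2 with all 24 libraries in 1 fit, the replicate block, DESeq2, the length offset or no minimum fold change, and it lay between 0 and 2 with 1 library left out (0 without WT replicate 1, 2 without WT replicate 2). For UHRF1-AID/DNMT1-AID against WT at day 4 the count of 0 became 2 with no filter, with all 24 libraries and with no minimum fold change, and between 0 and 3 with 1 library left out (2, 3 and 2 without WT replicate 1, 2 and 3, and 2 without UHRF1-AID/DNMT1-AID replicate 3). For WT between the days 0 became 1 with no filter, with all 24 libraries and with no minimum fold change. For UHRF1-AID between the days 3 became 5 with no filter and 1 with at least 10 counts, and for UHRF1-AID/DNMT1-AID 2 became 4 and 1. At day 0, UHRF1-AID/DNMT1-AID against WT went from 0 to 1 with no filter. UHRF1-AID/DNMT1-AID against DNMT1-AID went from 0 to 2 with no filter, to 1 with DESeq2 and with no minimum fold change, and between 0 and 2 with 1 library left out. UHRF1-AID against DNMT1-AID went from 1 to 0 with at least 10 counts or the replicate block, to 2 with no minimum fold change, and between 0 and 2 with 1 library left out.

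Of 208 such counts 170 stayed within 1.5 times the reported one, and none of 634 refitted chemokine fold changes that was called reversed. With the replicate block the count for UHRF1-AID cells between the days stayed at 3, and CXCL8 in DNMT1-AID cells between the days was lost, with 1.49 on the log2 scale. The pairing values of UHRF1-AID/DNMT1-AID cells between the days were 0.0871, 0.0971 and 0.0956. The labels do not say whether same-numbered libraries share more than a number. The causes were not tested. Depth limits 8 of the 10 genes, whose means were under 1 CPM.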
